A study of Mus musculus with 4 samples.

Results

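The genes described here are 44 regulators and effectors of the mouse cell cycle. They comprise 20 genes of G1 control (cyclins, cyclin-dependent kinases, CDK inhibitors, pocket proteins and E2F factors), 12 genes of DNA replication and 12 genes of S phase, G2 and mitosis. Probe sets were matched to the members by exact symbol in the platform annotation. The list itself was chosen with earlier results of these data known. A probe set is a group of short probes read as 1 signal. At least 1 was found for 43 of the 44 genes, 95 probe sets in all. Each of the 43 had at least 1 probe set bright enough to be tested, out of 12976 genes tested in all. No probe set carried Ccnb1 as its only symbol.

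The arrays were 4 one-colour Affymetrix arrays. All were hybridised with RNA of E14Tg2A.4 cells, a mouse embryonic stem cell line. The 2 treated arrays (replicates 1 and 2) came from cells exposed for 1 h to BMP-2, a bone morphogenetic protein, at a concentration of 25 ng/ml. The 2 untreated arrays (replicates 1 and 2) were from cells of that line kept without it for the same time. Both groups thus share 1 line. Nothing in the labels says that replicates were separate cultures, so p-values measure only how far these samples differ from each other, possibly for technical reasons. Each array reads the RNA of many cells, so that fewer cells in a phase of the cycle and less RNA per cell cannot be told apart.

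Cells pass from G1 into S phase when cyclin D with CDK4 or CDK6, and then cyclin E with CDK2, phosphorylate the pocket proteins RB1, RBL1 and RBL2. This frees E2F factors, which switch on the genes of DNA replication. CDK inhibitors of the Cip/Kip family (Cdkn1a, Cdkn1b and Cdkn1c) and the Ink4 family (Cdkn2a, Cdkn2b and Cdkn2c) hold the kinases back, and cyclin B with CDK1 drives entry into mitosis. Mouse embryonic stem cells are known for a short G1, for high cyclin E and CDK2 activity and for low levels of several CDK inhibitors.

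The classes differ in the letters of their promoters. The choice of members did not read the promoters. E2F factors are known to switch on genes of DNA replication, however, so the classes and these words are not independent. The RefSeq promoters (GRCm38.p6, from 250 bases before to 50 bases after the transcription start) were at hand for 35 of the 44 genes. They were searched on both strands for the E2F element (TTTCCCGC, TTTCGCGC, TTTGCCGC or TTTGGCGC), for the cell cycle genes homology region or CHR, bound by the DREAM complex of pocket proteins (TTTGAA), and for the CCAAT box. Words of different elements can overlap at their ends, and 2 E2F words can overlap on opposite strands. An E2F word was present in the promoters of 6 of 10 replication genes, 5 of 15 G1 genes and 1 of 10 mitotic genes, against 2.61% of all 27025 genes with a promoter. A CHR word was present in 7 of 10 mitotic genes, 4 of 15 G1 genes and 1 of 10 replication genes, against 20.2% of all genes. A CCAAT box was present in 8 of 10 replication and 9 of 10 mitotic genes, 7 of 15 G1 genes and 41.1% of all genes. These are matches of letters and do not show binding. The stretches below show E2F words in 3 replication genes and CHR words in 3 mitotic genes. Each is given in its sequence context, upstream of the start, in the direction of the gene, with the matching words in capitals. Where a word occurs more than once before the start, the match nearest to it is shown. Matches that reach or pass the start are not shown. The promoter of Ccnb2 holds 2 CHR words, and only the word 161 bases before the start is shown. The Mcm5 stretch holds 2 overlapping E2F words on opposite strands.

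Mcm6, E2F, chr1:128359706-128359792, minus strand: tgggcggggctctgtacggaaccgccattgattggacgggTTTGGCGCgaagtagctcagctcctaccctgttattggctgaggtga
Mcm5, E2F, chr8:75109316-75109403, plus strand: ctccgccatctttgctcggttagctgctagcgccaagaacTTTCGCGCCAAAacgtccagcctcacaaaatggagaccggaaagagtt
Cdc6, E2F, chr11:98907973-98908060, plus strand: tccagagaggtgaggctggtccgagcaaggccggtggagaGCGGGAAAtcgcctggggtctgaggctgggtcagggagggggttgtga
Cdc20, CHR, chr4:118437344-118437401, minus strand: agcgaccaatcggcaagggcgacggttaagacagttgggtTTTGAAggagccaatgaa
Cdk1, CHR, chr10:69352913-69352967, minus strand: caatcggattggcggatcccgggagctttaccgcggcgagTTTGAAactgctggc
Ccnb2, CHR, chr9:70421676-70421761, minus strand: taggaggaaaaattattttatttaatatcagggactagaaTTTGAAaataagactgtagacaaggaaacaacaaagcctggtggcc

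Values are MAS5 signals, a linear brightness per probe set. A gene is given by its brightest tested probe set, and a probe set was tested when its mean log2 signal passed the 40th percentile, a signal of 53.0. Signals of different genes depend on their probes and are not compared with one another. Array medians ran from 81.8 to 94.9, and log2 signals of any 2 arrays correlated at 0.984 to 0.987 across tested probe sets, which are not independent. The small number of arrays limits precision, and dim probe sets vary more than bright ones. The 3 control probe sets of 18S ribosomal RNA read 3.94 to 6.11 times higher on untreated replicate 2 than on the highest other array. Its part in the results was not tested, and values without that array are given below for each class. All 10 embryonic stem cell markers were above the signal limit on every array, with summed signals of 101282 to 107443 untreated and 100827 to 106408 treated. Of 10 fibroblast markers 4 were above the limit (summed signals 1473 to 1575 untreated, 1402 to 1698 treated), among them the collagen Col1a2 at 161 to 207. The 6 below it were Col1a1, Col3a1, Dcn, Lum, Postn and Twist2. Of 6 endoderm markers 5 were above the limit, with summed signals of 392 to 488 untreated and 489 to 685 treated. For endoderm the treated arrays were thus the higher ones, the nearest sums being 488 and 489. All 3 measured mesoderm markers were above the limit (412 to 512 against 434 to 537). Of 4 neuroectoderm markers 3 were above it, with sums of 2318 to 2355 untreated and 2026 to 2040 treated, so that the treated arrays were the lower ones. Of 4 trophectoderm markers 2 were above it (1068 to 1135 against 1073 to 1089). None of the markers was called. The part of other cell types in the results was not tested. The treatment was visible in Id1, an early BMP target, which read 3129 and 3007 untreated against 9738 and 9495 treated (1.65 log2, limma adjusted p = 2.0e-05).

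On their brightest probe sets, 42 of the 43 measured members were above the signal limit on every array. That limit is a filter on brightness, and the presence of the transcripts was not tested. Signals of the members differed little after 1 h of BMP-2. No member passed an adjusted p of 0.05: limma with Benjamini-Hochberg adjustment called 0 of the 83 tested member probe sets. An unadjusted p under 0.05 was seen for 6 of the 83. They came from only 3 genes, Ccnd2, Cdkn1a and E2f1, and most were probe sets of Ccnd2. Over all tested probe sets 0.0185% were called (5 of 27022, all higher), and 829 (3.07%) had an unadjusted p under 0.05. The median difference, BMP-2 minus untreated, was 0.01 log2 over the 43 genes, with 26 above 0 and 17 below, and 0.0089 log2 over all 12976 tested genes. A difference of over 0.15 log2 in either direction was seen for 5 of 43 members (11.6%) and for 32.4% of all tested genes. All 5 are G1 genes, 25% of that class. The G1 probe sets are dimmer (median log2 signal 9.65) than those of replication (13.1) or mitotic genes (12.1). Their median standard error is larger, 0.13 log2 against 0.07 and 0.08. Members are brighter than most genes, and bright probe sets vary less. Among the 26 members with a mean signal over 2000 the median size of the difference was 0.03 log2, against 0.04 log2 for all 2396 genes that bright.

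**Figure D1:**
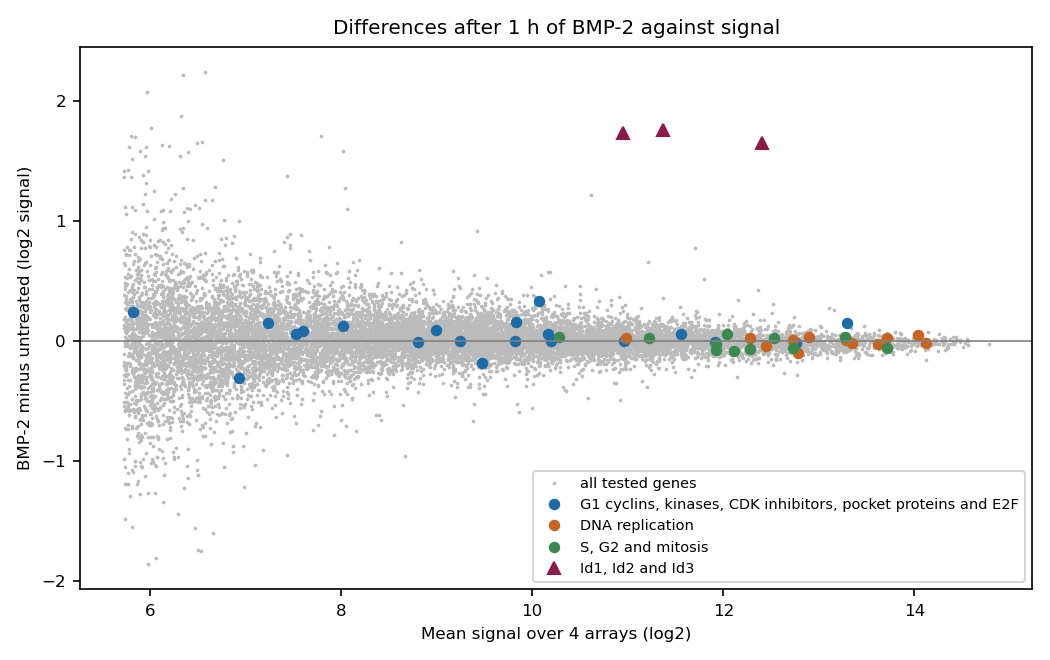
Difference between BMP-2 and untreated cells (log2 signal) against the mean log2 signal over the 4 arrays, 1 point per gene, with grey points for all tested genes, coloured circles for the members by class and triangles for Id1, Id2 and Id3. The members lie between -0.31 and 0.34 log2, and Id1, Id2 and Id3 at 1.65, 1.76 and 1.73 log2.

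Both treated arrays lay above both untreated arrays for 14 of the 83 member probe sets (16.9%), against 15.9% of all tested probe sets. They lay below for 17 (20.5%), against 12.5% of all. Probe sets of a gene read the same RNA samples and are not independent. Of the 26 genes with several tested probe sets, 14 had differences of both signs among them.

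**Figure D2:**
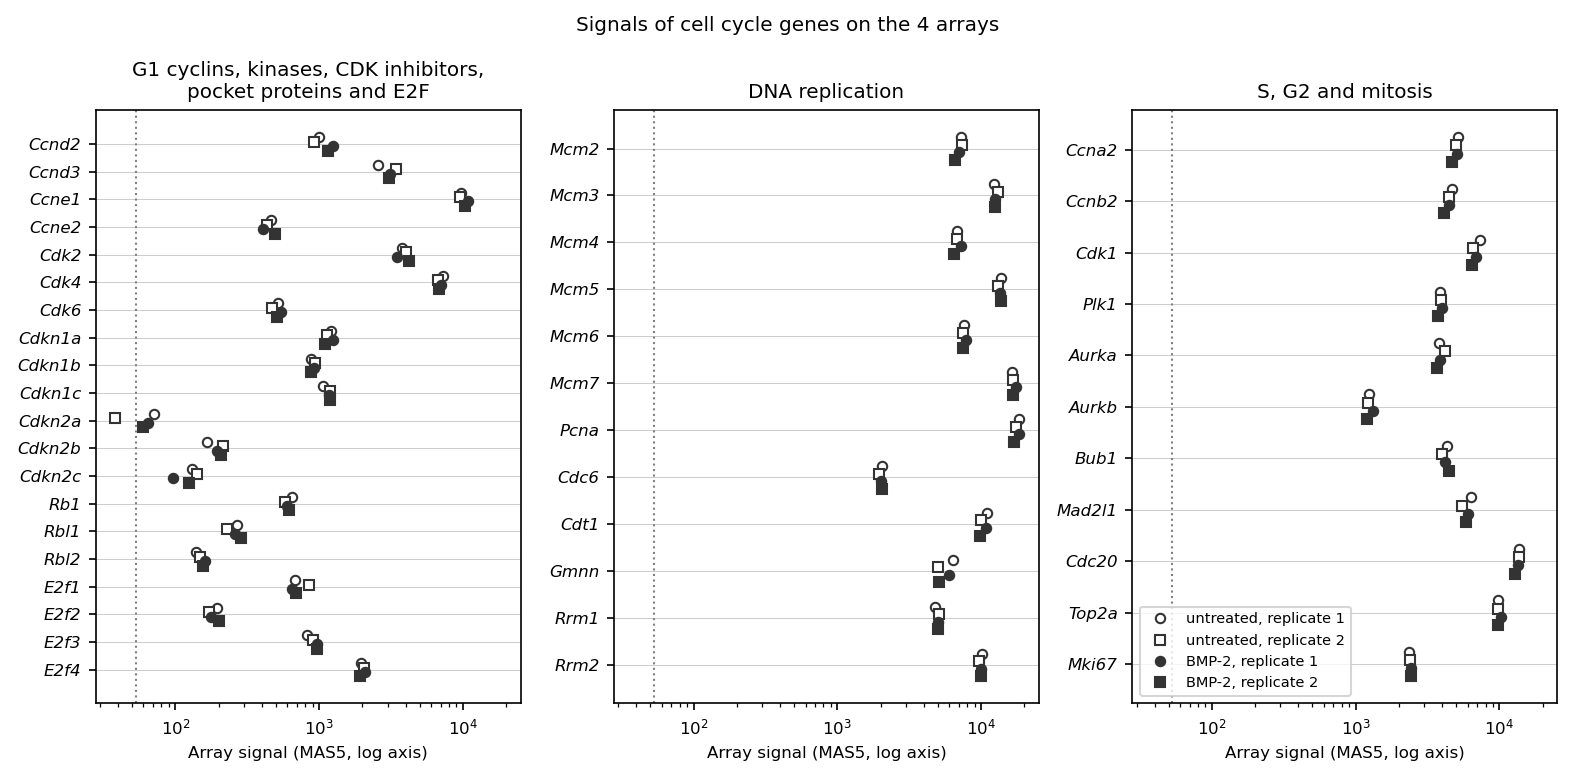
MAS5 signal (log axis) of each member on the 4 arrays, in panels by class, with open symbols for untreated and filled symbols for BMP-2 arrays and a dotted line at the signal limit of 53.0. The 4 symbols of a gene lie close together, Cdkn2a sits at the limit, and brightness is not comparable between genes.

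Among the G1 cyclins and their kinases, Ccnd2 had the largest difference of the 43 genes. Ccnd2 encodes cyclin D2, a partner of CDK4 and CDK6. It read 990 and 923 in untreated cells and 1255 and 1160 with BMP-2, a 1.26-fold higher signal (95% interval 1.07 to 1.49, limma adjusted p = 1.00, unadjusted p = 0.0113). Both treated arrays were above both untreated arrays. The difference was 0.34 ± 0.11 log2 (SE). It stayed between 0.28 and 0.39 over 12 alternative settings and passed the threshold in none of them. The filters, the trend and the replicate block cannot move the difference, only its p. With each array centred on its median the unadjusted p was 0.117 (limma).

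The tested probe sets of Ccnd2 had 1 direction. All 6 tested probe sets were higher on average with BMP-2, by 0.28 to 0.54 log2, and in 5 of the 6 the groups did not overlap. A dimmer one read 341 and 271 untreated against 445 and 438 treated (0.54 log2, limma adjusted p = 1.00, unadjusted p = 0.0081), and another read 590 and 679 against 850 and 782 (0.37 log2). The sixth was dim, at 65.8 and 41.7 against 89.3 and 62.7, and its groups overlapped. The mean over the 6 gave 0.39 log2 (adjusted p = 1.00 in a limma fit per gene). A seventh probe set was too dim to be tested, at 37.6 and 66.5 untreated and 34.8 and 18.9 treated, which is the opposite order. The probe sets share the same RNA and are not further replicates.

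Cyclin E1 with CDK2 carries cells into S phase. Ccne1 read 9670 and 9466 in untreated cells and 10870 and 10331 with BMP-2 (0.15 ± 0.07 log2, interval -0.0022 to 0.30, limma adjusted p = 1.00). The treated arrays were above the untreated ones on this probe set. On the other probe set of Ccne1 the order was reversed, with 5425 and 5728 untreated against 5310 and 4929 treated (-0.12 log2), so the probe sets give no common direction. Ccne2, which encodes cyclin E2, read 464 and 434 against 404 and 490.

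The kinases overlapped between the groups on their brightest probe sets. Cdk4 read 7258 and 6740 untreated and 7077 and 6779 treated (-0.01 log2, interval -0.18 to 0.15), and its 2 other probe sets differed by 0.05 and -0.06 log2, the latter without overlap. Cdk6, its close relative, read 513 and 472 against 540 and 510 (0.09 log2, interval -0.20 to 0.39), and the dimmest of its 3 probe sets did not overlap (0.27 log2). Cdk2, the partner of cyclins E and A, read 3743 and 3992 against 3496 and 4209 (-0.01 log2). Ccnd3, which encodes cyclin D3, read 2551 and 3425 untreated, a gap that held both treated values of 3131 and 3040 (0.06 log2). Its dimmer tested probe set had the other sign (-0.34 log2) and overlapped too.

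The CDK inhibitors were set against the signal limit of 53.0, gene by gene. The Cip/Kip genes were above it on every array. Cdkn1a, which encodes p21, read 1204 and 1138 untreated, Cdkn1b, which encodes p27, read 873 and 936, and Cdkn1c, which encodes p57, read 1068 and 1189. Of the Ink4 genes, Cdkn2b and Cdkn2c were also above it on every array. Cdkn2b, which encodes p15, read 166 and 215, and Cdkn2c, which encodes p18, read 130 and 141. Cdkn2a, the locus of p16 and p19Arf, read 71.5 and 38.2, on either side of the limit, and was the only member with an array below it.

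With BMP-2 none of the 6 inhibitors passed. Cdkn1a read 1253 and 1095 on its brighter probe set (0.0014 ± 0.11 log2, interval -0.25 to 0.25, limma adjusted p = 1.00). Its other probe set, nearly as bright, read 914 and 1325 untreated and 770 and 821 treated. That is -0.47 ± 0.16 log2 (limma adjusted p = 1.00, unadjusted p = 0.016), with no overlap and with untreated replicate 2 well above the other arrays. The 2 probe sets of Cdkn1a thus differ by 0.47 log2 in what they report, and their mean gave -0.23 log2.

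For the other inhibitors every interval held 0. Cdkn1b read 927 and 880 with BMP-2, inside the span of the untreated arrays (-0.00025 log2, interval -0.25 to 0.25). Cdkn1c read 1165 and 1189 (0.06 log2, interval -0.18 to 0.30). Cdkn2b read 195 and 206, within its untreated values (0.09 log2, interval -0.37 to 0.55). Cdkn2c read 96.4 and 124.6, below both untreated arrays (-0.31 ± 0.25 log2, interval -0.87 to 0.26). Cdkn2a read 64.3 and 59.4, and its interval of -0.71 to 1.20 log2 leaves its direction undetermined.

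The pocket proteins bind E2F and recruit repressors to its targets. Rb1 read 645 and 574 untreated and 602 and 617 with BMP-2 (0.0024 log2, interval -0.28 to 0.29). Rbl1, which encodes p107, read 267 and 230 against 259 and 284 (0.13 log2, interval -0.26 to 0.52). Rbl2, which encodes p130, read 139 and 148 against 161 and 156, with both treated arrays above the untreated ones (0.15 log2, interval -0.33 to 0.63). The error of Rbl2, an SE of 0.21 log2, is larger than its difference.

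Among the E2F genes, E2f1, an activator of S phase genes, was lower with BMP-2 on both tested probe sets without passing. The brighter one read 683 and 850 untreated and 647 and 693 treated, and the groups overlapped (-0.19 ± 0.14 log2, limma adjusted p = 1.00). The dimmer one read 338 and 307 against 201 and 262 and did not overlap (-0.49 ± 0.19 log2, adjusted p = 1.00, unadjusted p = 0.0255). The difference on the brighter probe set ran from -0.34 to -0.03 log2 over the alternative settings, the latter without untreated replicate 2.

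E2f3, another activator, gave opposite signs on its 2 probe sets. The brighter one read 822 and 912 untreated and 965 and 965 treated (0.16 ± 0.11 log2), above both untreated arrays. The dimmer one read 314 and 273 against 244 and 215 (-0.36 log2, limma adjusted p = 1.00), below both. E2f2 read 193 and 170 against 177 and 202 and overlapped, while its dimmer probe set was below both untreated arrays (-0.16 log2). E2f4, which acts mainly as a repressor with p107 and p130, read 1954 and 2035 against 2070 and 1925 (0.0014 log2, interval -0.20 to 0.21).

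**Figure D3:**
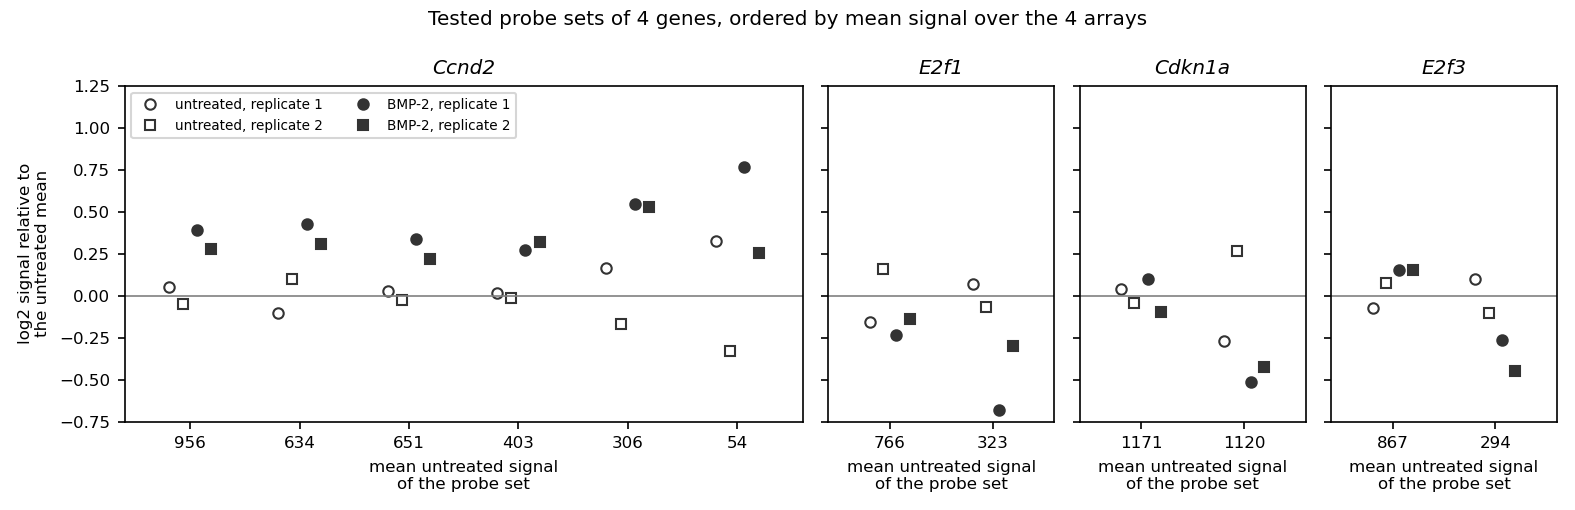
Log2 signal of each tested probe set of Ccnd2, E2f1, Cdkn1a and E2f3 relative to its untreated mean, with open symbols for untreated and filled symbols for BMP-2 arrays and the mean untreated signal under each probe set. The 6 Ccnd2 probe sets differ in the same direction (0.28 to 0.54 log2), and the 2 of E2f3 in opposite directions (0.16 and -0.36 log2).

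As a class, the 20 G1 genes had a median difference of 0.06 log2, with 14 above 0 and 6 below. The class mean on each array, relative to its untreated mean, was 0.0034 and -0.0034 untreated and 0.04 and 0.06 treated. Both treated values were above both untreated ones, as they were not for the mean of all tested genes (-0.03 and 0.03 against -0.02 and 0.05). With 2 arrays per group, 15.9% of all tested probe sets had that order. That share is for single probe sets and does not say how often a class mean has it. The largest positive differences in the class were those of Ccnd2 (0.34 log2) and of Cdkn2a (0.24 ± 0.43 log2, SE), which is at the signal limit. The class median was 0.00058 log2 when a gene's tested probe sets were averaged instead of taking the brightest. It was 0.0313 without untreated replicate 2, 0.0408 without untreated replicate 1 and 0.0942 without treated replicate 1.

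Replication genes were close to their untreated values. MCM2 to MCM7 form the ring-shaped helicase that unwinds DNA at the fork. Mcm7 read 16306 and 16610 untreated and 17350 and 16750 treated (0.05 ± 0.06 log2, interval -0.09 to 0.19, limma adjusted p = 1.00). Mcm2 read 7259 and 7301 against 7062 and 6557 (-0.10 ± 0.07 log2, interval -0.26 to 0.06, limma adjusted p = 1.00), the largest difference among the 12 genes. Both had groups that did not overlap, in opposite directions. The other probe set of Mcm2 had the other sign (0.13 log2), as did the 3 others of Mcm7 (down to -0.11 log2). Mcm6 read 7568 and 7472 against 7894 and 7531 (0.04 log2). Mcm3, Mcm4 and Mcm5 differed by -0.03, 0.01 and 0.03 log2 on their brightest probe sets. All 5 probe sets of Mcm3 were below 0, by as much as -0.27 log2, and 2 of them did not overlap. Mcm5 had a dimmer probe set at 6644 and 7072 untreated and 6286 and 6266 treated (-0.13 log2), below both untreated arrays.

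The loading factors and the supply of nucleotides showed the same small spread. Cdc6 and Cdt1 load the helicase onto origins, and geminin (Gmnn) blocks Cdt1. Cdc6 read 2057 and 1942 untreated and 2022 and 2045 treated (0.03 log2), and Cdt1 read 10933 and 10025 against 10802 and 9887 (-0.02 log2). Gmnn had the widest untreated gap of the class, 6391 and 4985, and its treated values of 5928 and 5107 lay inside it (-0.04 log2, interval -0.30 to 0.23). Pcna, the sliding clamp of DNA polymerase, read 18231 and 17453 against 18456 and 16885 (-0.02 log2, interval -0.17 to 0.13). Rrm1 and Rrm2, the subunits of ribonucleotide reductase, differed by 0.02 and 0.0076 log2.

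All 12 replication genes differed by less than 0.15 log2, and their intervals together ran from -0.30 to 0.23 log2. Their median was 0.01 log2, with 7 above 0 and 5 below. The class mean was 0.02 and -0.02 on the untreated arrays and 0.03 and -0.03 on the treated ones, each pair being replicates 1 and 2. Arrays with the same replicate number stood closer to each other than arrays of the same group. The median was -0.0137 log2 without untreated replicate 2 and -0.0115 without treated replicate 1, against 0.0406 and 0.0326 without untreated replicate 1 and treated replicate 2. It was -0.0207 log2 when each gene's tested probe sets were averaged.

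On the brightest probe sets of the mitotic genes the groups overlapped for all but Cdc20, Ccnb2 and Mki67. Cdc20, an activator of the anaphase-promoting complex, read 13702 and 13601 untreated and 13403 and 12868 treated (-0.06 ± 0.06 log2, interval -0.20 to 0.09, limma adjusted p = 1.00). It was below both untreated arrays on all 3 tested probe sets, by differences of -0.10 to -0.06 log2. Ccnb2, which encodes cyclin B2, read 4657 and 4491 against 4490 and 4137 (-0.09 ± 0.08 log2), so the nearest arrays of the groups read 4491.35 and 4489.67. Ccna2, which encodes cyclin A2 of S phase and G2, read 5158 and 5010 against 5048 and 4658 (-0.07 log2, interval -0.24 to 0.11). Cdk1, the kinase of mitotic entry, read 7308 and 6571 against 6867 and 6434 (-0.06 log2).

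The mitotic kinases and checkpoint genes had both signs. Plk1, a kinase of spindle assembly, differed by -0.02 log2 and Aurka, the spindle pole kinase, by -0.07. A dimmer probe set of Aurka had the other sign, at 103 and 126 untreated and 140 and 128 treated (0.24 log2), without overlap. Aurkb, the kinase of the chromosomal passenger complex, differed by 0.04. Bub1 and Mad2l1, which hold back anaphase until chromosomes are attached, differed by 0.06 and 0.02 log2. The dimmer probe set of Bub1 had the other sign, at 111 and 118 untreated and 84.3 and 106 treated (-0.27 log2), without overlap. Top2a, the topoisomerase that untangles replicated DNA, read 9815 and 9731 against 10308 and 9728 (0.04 log2). Its dimmer tested probe set read 457 and 479 untreated and 526 and 499 treated (0.13 log2), without overlap. Mki67, whose protein is the Ki-67 marker of cycling cells, read 2332 and 2405 against 2411 and 2422 (0.03 log2, interval -0.16 to 0.22), above both untreated arrays by a small margin.

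The 11 mitotic genes measured had a median of -0.02 log2, with 5 above 0 and 6 below, and their intervals together ran from -0.26 to 0.27 log2. The class mean was 0.02 and -0.02 on untreated replicates 1 and 2 and 0.02 and -0.05 on treated replicates 1 and 2. Without untreated replicate 2 the median was -0.0070 log2. It was -0.0697 without treated replicate 1, and above 0 without untreated replicate 1 (0.0070) or treated replicate 2 (0.0105). None of the 3 classes was tested as a list, and a p that misses the threshold does not show that a gene was unaffected.

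**Figure D4:**
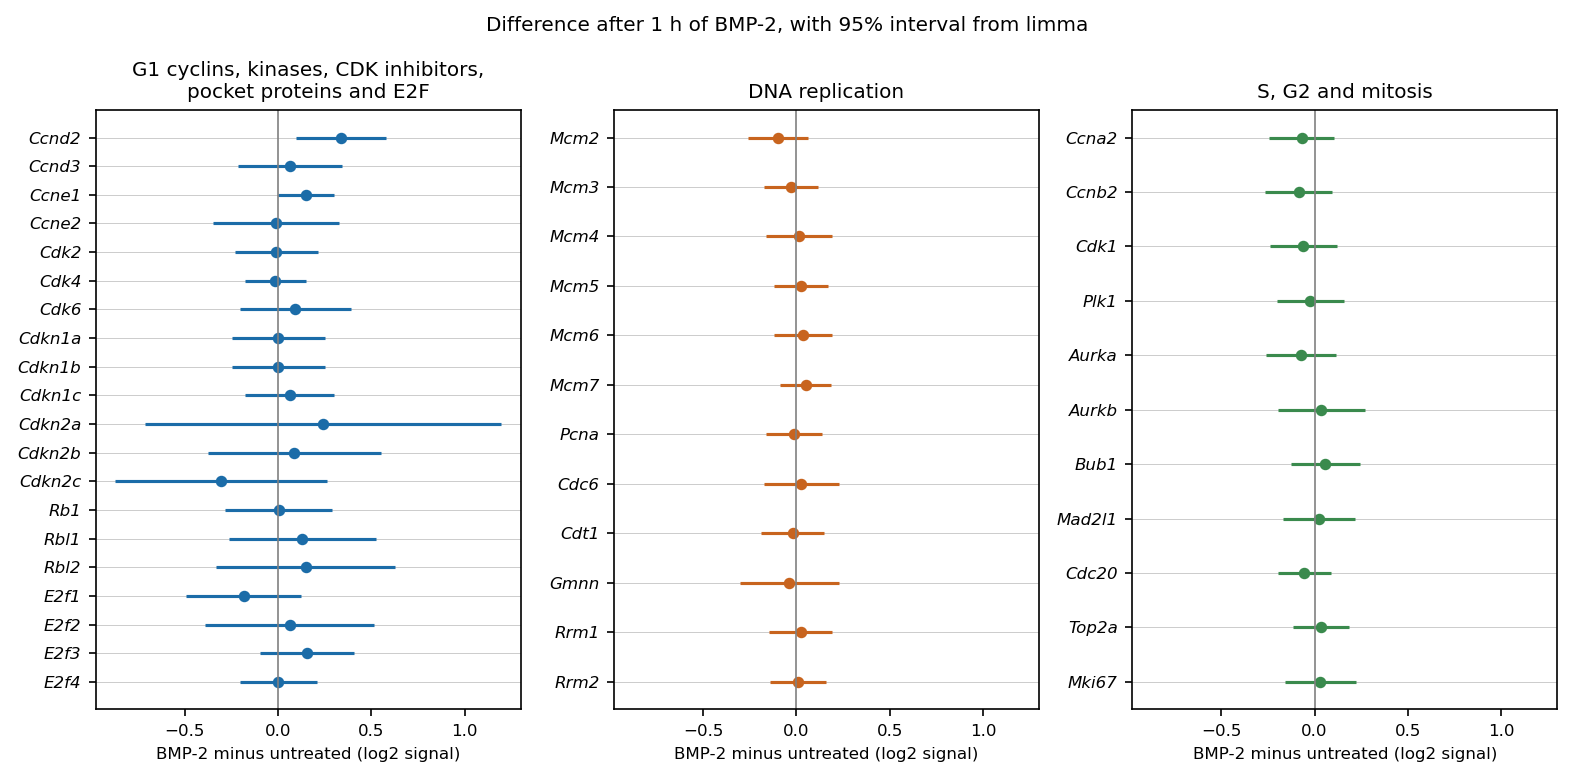
Difference between BMP-2 and untreated cells for each member (points, log2 signal) with its 95% interval from limma (lines), in panels by class. Of the 43 intervals that of Ccnd2 (0.09 to 0.58 log2) is the only one that leaves out 0, before any adjustment for the number of genes tested, and the intervals are widest for the dim inhibitors Cdkn2a and Cdkn2c.

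Other genes of the cell cycle, listed from general knowledge but with earlier results of these data known, had medians near 0. Of 23 measured genes of G1 and S entry 8 were above 0 and 15 below (median -0.04 log2), of 44 replication genes 15 were above and 29 below (median -0.03), and of 44 mitotic genes 21 were above and 23 below (median -0.0022). No gene of these lists passed by limma (0 on their brightest probe sets, with 1, 0 and 1 at an unadjusted p under 0.05), beside 0.0185% of all probe sets. E2f7, an E2F repressor, read 922 and 934 untreated and 1127 and 1116 with BMP-2 (0.27 ± 0.10 log2, limma adjusted p = 1.00). Kif11, the motor that separates spindle poles, read 1849 and 1783 against 2087 and 2236 (0.25 ± 0.09 log2, limma adjusted p = 1.00). Gins2, a subunit of the replicative helicase, read 2058 and 2029 against 2277 and 2358 (0.18 ± 0.09 log2, limma adjusted p = 1.00). For these 3 genes the groups did not overlap. Only the 3 genes with the smallest p of each list are named here. On the brightest probe sets 1, 3 and 5 genes of the 3 lists were higher without overlap, and 3, 8 and 7 were lower. Over all 12976 tested genes 2122 were higher and 1613 lower without overlap. Among the named genes, Ube2c, a ubiquitin-conjugating enzyme of the anaphase-promoting complex, was lower without overlap (11107 and 11040 against 10472 and 9613, -0.14 log2). So were Nek2, a centrosomal kinase (-0.16), and Chaf1b, a chromatin assembly factor (-0.13). The same held for E2f5, an E2F repressor (-0.10), and for Ccnh, the cyclin of the CDK-activating kinase (-0.10). Pola2, a subunit of DNA polymerase alpha, differed by -0.16 log2 and overlapped.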

How the data were processed

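The 4 samples (2 treated, 2 untreated) were grouped by their titles. Each deposited value is a probe set's intensity on a linear scale. The authors used MAS5 according to the submitters' processing notes. Its version is not given in the sources used. From the deposited values, each array has a mean of 500.0 after trimming 2% at each end, which shows a scaling within arrays. No detection calls were used.

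Log2 was taken without a pseudocount. Array medians lay within 0.214 log2 (limit 0.3), so nothing further was normalized. After 64 control probe sets were set aside, 27022 of 45037 were kept above the 40th percentile. limma 3.58.1 in R 4.3.3 (lmFit, eBayes with an intensity trend, 2 residual and 7.98 prior degrees of freedom) was fitted over all of them, two-sided, adjusted by Benjamini-Hochberg. The code was tested on simulated data. With 2 arrays per group an exact permutation test cannot reach 0.05, and none was run.

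The members, their classes and the other lists were chosen with earlier results of these data known. All members are named. Values on every array were to be given for the 3 smallest p-values and the 2 brightest of each functional group and for any gene past the threshold, and others are given as examples. From each other list the 3 genes with the smallest p are named. Alternatives were quantile normalization, centring on array medians, a pseudocount of 25.4, a filter at the 60th percentile or none, no trend, the replicate number as a block, averaging each gene's probe sets and leaving out each array. Promoters are those of RefSeq for GRCm38.p6, and 35 of 44 symbols matched.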

Additional observations from a re-analysis of the deposited data

How the results depend on the processing

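No member probe set passed in any of the 11 alternatives with a fit over probe sets, and no member in the fit per gene. The lowest adjusted p of a member probe set was 0.0773, by limma without untreated replicate 1. Fits without 1 array leave 1 sample in a group, which is assumed to vary like the other group. Over all probe sets 5 passed (5 higher, 0 lower). Centring each array on its median gave 116 (72 higher, 44 lower), the filter at the 60th percentile 8, and eBayes without the trend 0 (1023 at an unadjusted p under 0.05 by limma). Leaving out 1 array gave 16 to 141. The replicate number as a block gave 11 over all probe sets and 0 among members, and it changed no call of a member. Deviations of arrays with equal number correlated at 0.152. With 2 pairs this does not establish a pairing. The G1 median of 0.06 log2 was 0.0417 with quantile normalization, 0.00058 when each gene's probe sets were averaged, and 0.0313 to 0.0942 without 1 array. The mitotic median ran from -0.0697 to 0.0105 and the replication median from -0.0137 to 0.0406 without 1 array. When each gene's probe sets were averaged, the replication median was -0.0207 and the mitotic median -0.0226. The cause was not tested. Of 43 members 32 changed sign in some alternative and 11 kept their sign, Ccnd2 and E2f1 among them. Dim signals limit Cdkn2a, Cdkn2c and Rbl2 most among the members, with SEs of 0.43, 0.25 and 0.21 log2.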

Other observations

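A few genes of growth and G1 control were looked up singly after the other values had been seen. They belong to the list of G1 and S entry and are already counted there. Ccnd1, which encodes cyclin D1, read 5051 and 4858 untreated and 4960 and 5126 with BMP-2 (0.03 log2, interval -0.14 to 0.19), and its groups overlapped. Mycn, a MYC family factor, read 10002 and 9336 against 9376 and 9219 (-0.06 log2), and Myc read 1761 and 1669 against 1770 and 1529 (-0.06 log2). Cdc25a, the phosphatase that activates CDK2, read 2444 and 2455 against 2340 and 2450 (-0.03 log2). The groups overlapped for these genes too. Of the 95 member probe sets 12, from 11 genes, were too dim to be tested, with signals of 0.632 to 74.6.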
